A study of Mus musculus with 20 samples.

Results

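Bulk pancreatic tumours, 10 in number, were ranked by Ptprc, the gene of the leukocyte antigen CD45, and divided into the 5 libraries with the most Ptprc (leukocyte-rich) and the 5 with the least (leukocyte-poor). They belong to a mouse RNA-seq study of 20 libraries, of which the remaining 10 are CD45-selected tumour leukocytes. All tumours were grown orthotopically from cultured KPC cells, which are mouse pancreatic cancer cells, in C57BL/6 hosts that were either wild type (WT) or IL33-/- (labelled IL33KO). The hosts were untreated, and the tumours were collected 2 weeks after implantation. The host genotype is the only labelled difference, so every library shares the KPC cells, the strain, the site and the stage. The labels name 5 hosts per genotype without tying a library to a host, do not say which KPC line was used, and give no IL-33 genotype for the injected cells. Whether the bulk RNA was taken before or after dissociation of the tumour is not stated either.

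CD45 is a tyrosine phosphatase on the surface of nearly all blood-derived cells except mature red cells and platelets, where it sets the threshold of antigen receptor signalling. A pancreatic tumour is a mixture of cancer epithelium, fibroblasts, vessels, macrophages, granulocytes, lymphocytes and remnants of the surrounding pancreas, and the share of each differs between tumours and between pieces of a tumour. A gene can therefore be higher in a bulk sample because more cells of a type are present or because each of them holds more of its RNA, and bulk values cannot tell these apart.

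The split rested on Ptprc counts scaled to the total gene counts of the library (CPM). On the leukocyte-rich side Ptprc was 138 CPM in IL33KO 5, 102 CPM in WT 5, 101 CPM in WT 3, 95.3 CPM in IL33KO 4 and 87.1 CPM in IL33KO 1. On the leukocyte-poor side it was 86.1 CPM in WT 2, 84.8 CPM in IL33KO 2, 71.6 CPM in WT 1, 63.0 CPM in WT 4 and 50.1 CPM in IL33KO 3. The values form a continuous series, and the members next to the boundary, IL33KO 1 and WT 2, differ by about 1 CPM. Rich tumours were thus 2 WT and 3 IL33KO, and poor tumours 3 WT and 2 IL33KO. After scaling by TMM, which corrects library sizes for composition and is used for all CPM values from here on, Ptprc averaged 88.7 ± 13.7 CPM on the rich side and 60.2 ± 13.5 on the poor side (SD, n = 5 each), a ratio of 1.47. The CD45-selected libraries averaged 746 CPM (n = 10), far above both sides. Ptprc lies on chromosome 1 at 138062861-138175708 (GRCm38, protein-coding).

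**Figure D1:**
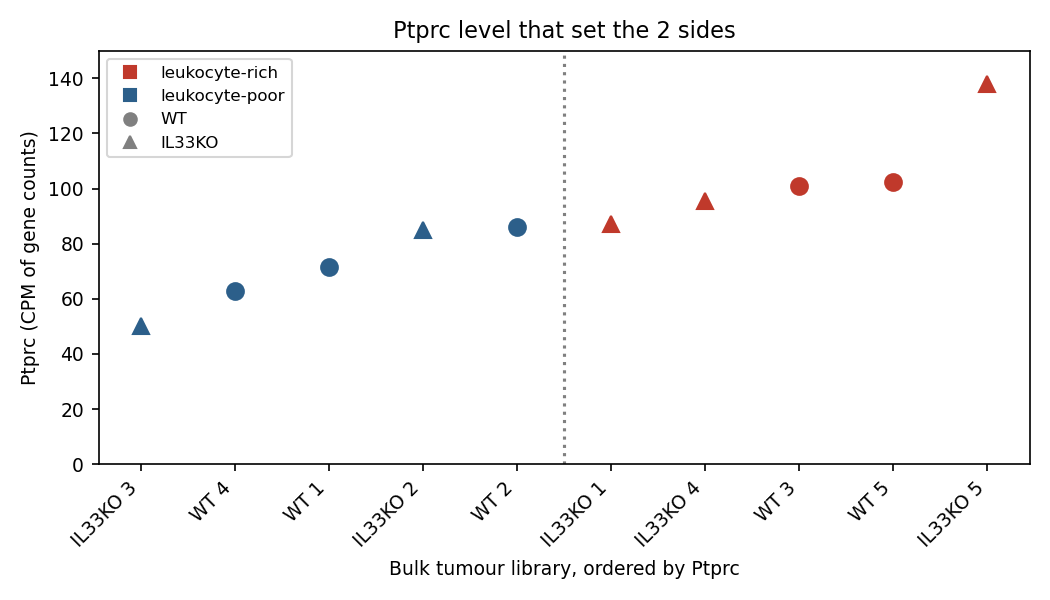
Ptprc in CPM of gene counts (y axis) in each of the 10 bulk tumour libraries, ordered from lowest to highest (x axis); colour gives the side, symbols the host genotype, and the dotted line the boundary. The series runs from 50.1 to 138 CPM with no gap at the boundary, where WT 2 and IL33KO 1 stand at 86.1 and 87.1 CPM.

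The bulk libraries held 51.3 to 81.0 M gene counts (M for mega), with 21758 to 22844 genes detected, and 4.38 to 11.2% of their reads did not align. Rich libraries had more counts (59.2 to 81.0 M) and more genes detected (22227 to 22844) than poor ones (51.3 to 66.8 M and 21758 to 22441), with overlapping ranges, and the part of depth in the results was not tested. Il33 was counted in all 10 libraries, at 48.4, 42.4, 56.3, 37.0 and 46.3 CPM in IL33KO 1 to 5. It was at 56.3, 66.7, 53.6, 55.0 and 56.9 CPM in WT 1 to 5, so the counts do not check the host label. Il33 averaged 48.5 CPM on the rich side and 55.3 CPM on the poor side, and the sides overlapped. In all, 3 libraries hold skeletal muscle transcripts and 3 hold acinar transcripts of the normal pancreas; these are described below with the genes they touch.

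Because the sides were chosen from the expression of these libraries, the contrast is a description and carries no p-value. A gene was counted as higher or lower in rich tumours only if all 5 rich values lay on one side of all 5 poor values. Among the 17258 genes with enough counts to compare, 463 (2.68%) were higher in every rich tumour and 51 (0.296%) lower. With a further requirement of a 2-fold difference in mean CPM, 184 genes (1.07%) were higher and 5 (0.029%) lower. The separated genes were thus mostly higher in rich tumours. The median log2 difference over all genes was 0.01, and 51.9% of genes had the higher mean in rich tumours. Scaling brings the libraries to a common level, so these values cannot show a shift of most genes together. A gene found at low level on the poor side could enter the comparison through the rich side alone. Of the 184 genes, 100 differed by at least 2-fold within both genotypes. Their direction within each genotype was fixed by the separation itself, so this describes size only. Predicted models or immunoglobulin or T cell receptor segments made up 19 of the 184, which are counted but not named.

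Nearly every cell type list leaned to the rich side. Of 41 lists of marker and pathway genes, 40 had a median log2 difference above 0, 39 within WT alone and 34 within IL33KO alone. Of their 373 compared genes, 40 (10.7%) were higher in every rich tumour, against 2.68% of all genes, and 0 were lower. A list's score, which averages the log2 CPM of its members, separated the sides for 5 lists, namely macrophage, monocyte, eosinophil, immune checkpoint, and erythroid cell and platelet. The lists share no genes, but all were scored on the same 10 libraries, so they are not independent of each other.

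**Figure D2:**
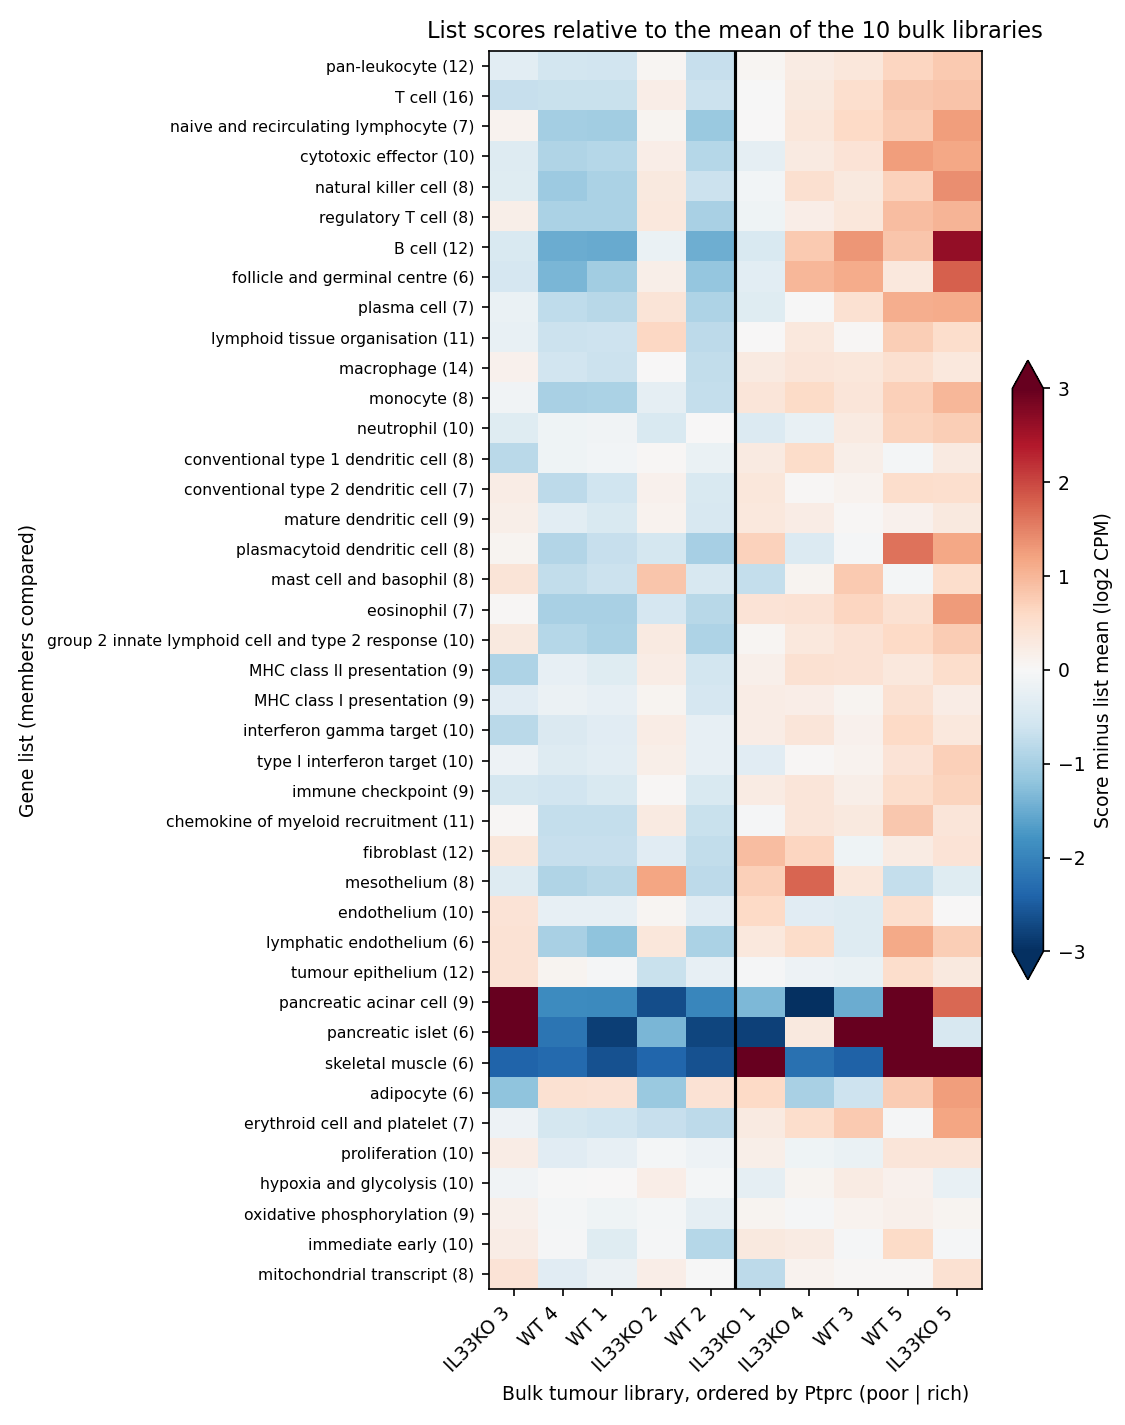
Score of each of the 41 gene lists (rows, with the number of members compared) in each bulk library (columns, ordered by Ptprc, poor to the left of the line and rich to the right), as mean log2 CPM minus the mean of the list over the 10 libraries; colours are clipped at 3 in either direction. WT 1, WT 2 and WT 4 are low in most leukocyte lists, and the acinar, islet and skeletal muscle rows have values beyond the clip in a few libraries.

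The general leukocyte genes moved with Ptprc but did not all respect the boundary. Of 12 genes shared by most leukocytes, 12 had the higher mean in rich tumours, against 51.9% of all genes, with a median log2 difference of 0.79. Higher in every rich tumour were 5 (Coro1a, Laptm5, Itgb2, Was and Vav1), against 2.68% of all genes. Coro1a, which encodes the actin-binding protein coronin 1A, was at 129, 188, 117, 120 and 175 CPM in rich WT 3, WT 5, IL33KO 1, IL33KO 4 and IL33KO 5. In poor WT 1, WT 2, WT 4, IL33KO 2 and IL33KO 3 it was at 59.4, 39.7, 74.6, 105 and 84.3 CPM. The lowest rich tumour thus stood just above the highest poor one, and the means differed 2.01-fold (log2 difference 1.05, SE 0.28 from the spread within the sides). Itgb2, the β2 integrin chain that leukocytes use for adhesion, ranged from 114 to 170 CPM in rich and from 61.0 to 109 CPM in poor tumours. Cd37, a tetraspanin of lymphocytes, had a larger difference in means (17.9 against 5.89 CPM), yet its sides overlapped because IL33KO 1 at 8.98 CPM lay below IL33KO 2 at 9.55 CPM. The score of the list was 5.39 in IL33KO 1 and 5.40 in IL33KO 2, so a split by this score would exchange these libraries. In the edgeR quasi-likelihood test of sorted against bulk libraries, which shares the bulk libraries, 12 of 12 were higher in sorted leukocytes, against 37.1% of the 18145 genes tested. The sorted cells were selected on CD45, so this outcome follows from the design and is no separate support for the split.

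Of the 41 lists, macrophage genes had the largest share of members that were higher in every rich tumour. Macrophages are tissue phagocytes, and their complement C1q chains, CSF1 receptor and apolipoprotein E are widely used to mark them. All 14 members had the higher mean in rich tumours (median log2 difference 0.68), against 51.9% of all genes. Higher in every rich tumour were 7 of the 14, against 2.68% of all genes, namely Adgre1, Csf1r, C1qa, C1qb, C1qc, Apoe and Mertk. C1qa, a chain of the first complement component, was at 368, 572, 363, 378 and 426 CPM in rich WT 3, WT 5, IL33KO 1, IL33KO 4 and IL33KO 5. In poor WT 1, WT 2 and WT 4 it was at 166, 122 and 192 CPM, and in poor IL33KO 2 and IL33KO 3 at 331 and 350 CPM. The gap was therefore wide among WT tumours (log2 difference 1.54) and narrow among IL33KO tumours (0.19). Csf1r, the receptor for the growth factor that keeps macrophages alive, ran from 176 to 200 CPM in rich and from 107 to 155 CPM in poor tumours. Adgre1, which encodes F4/80, differed less, from 37.9 to 42.9 CPM against 28.4 to 37.8 CPM. Folr2 and Trem2, markers of macrophage subsets, had larger differences in means (10.8 against 4.81 CPM and 27.3 against 13.3 CPM) and overlapped, since IL33KO 3, the tumour with the least Ptprc, had 10.7 and 22.0 CPM. The macrophage score was 5.91 to 6.12 in rich and 4.89 to 5.77 in poor tumours, and the highest poor score belonged to IL33KO 3. Without the 3 libraries that hold muscle transcripts, only WT 3 and IL33KO 4 remain on the rich side, against the 5 poor tumours. In that smaller comparison, added after the data were seen, 11 of 14 were separated, where 6.73% of all genes were.

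Monocyte genes had a median log2 difference of 0.95, and most members overlapped. The score was 5.47 to 6.12 in rich and 4.14 to 5.02 in poor tumours. Higher in every rich tumour were 2 of 8 members, Ly6c2 and Chil3, against 2.68% of all genes. Chil3, the chitinase-like protein Ym1 of monocytes and alternatively activated macrophages, was at 253, 173, 34.6, 61.5 and 295 CPM in rich WT 3, WT 5, IL33KO 1, IL33KO 4 and IL33KO 5. Among the poor tumours it was at 7.94, 10.4 and 6.73 CPM in WT 1, WT 2 and WT 4, and at 8.17 and 22.8 CPM in IL33KO 2 and IL33KO 3. All rich values exceeded all poor ones, and the means differed 14.5-fold with a wide spread within the rich side (163 ± 114 CPM). Ly6c2, the Ly-6C antigen of inflammatory monocytes, averaged 7.57 ± 4.46 CPM in rich and 2.07 ± 1.20 in poor tumours (log2 difference 1.89, SE 0.48). Ccr2, the chemokine receptor that brings monocytes out of the marrow, overlapped, at 13.5 to 35.7 CPM against 9.45 to 20.4 CPM. Chil3 and Ly6c2 were also higher in sorted leukocytes than in bulk (log2 3.29, adjusted p = 0.00154, and 5.11, adjusted p = 2.48e-08, edgeR). Among the sorted libraries Chil3 was highest in IL33KO 3 (3140 CPM). Ly6c2 (303 CPM) and Ngp, a granule protein of developing neutrophils (8480 CPM), were highest there too. Which cells held the Chil3 RNA was not tested.

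Granulocyte genes did not move as a block. Among 7 eosinophil genes the score separated the sides (2.27 to 3.15 in rich, 0.88 to 1.89 in poor tumours). Of these genes, 2 were higher in every rich tumour, against 2.68% of all genes. They are Prg2 and Epx, both proteins of the eosinophil granule. Prg2 was at 6.60, 3.00, 3.36, 5.90 and 12.9 CPM in rich WT 3, WT 5, IL33KO 1, IL33KO 4 and IL33KO 5. It was at 0.350, 0.395, 0.234, 0.976 and 2.69 CPM in poor WT 1, WT 2, WT 4, IL33KO 2 and IL33KO 3. The boundary was close, with IL33KO 3 just under WT 5, and the log2 difference was 3.10 (SE 0.72). Epx was at 0.594 to 2.42 CPM in rich tumours and at most 0.187 CPM in poor ones, where the lowest values are near the 3-count floor of 0.0326 to 0.0469 CPM, so no fold is given. Ccr3, the eotaxin receptor of the same cells, overlapped at 0.805 to 3.02 CPM against 0.168 to 1.83 CPM. Of 10 neutrophil genes, Ly6g and Hdc, the histamine-forming enzyme, were higher in every rich tumour, against 2.68% of all genes. The mean was higher in rich tumours for 7 of the 10. Ly6g, the antigen that defines mouse neutrophils, was at 0.511 to 2.93 CPM in rich and 0.167 to 0.467 CPM in poor tumours. Cxcr2, the receptor for neutrophil-attracting chemokines, averaged 11.5 CPM in rich and 15.4 CPM in poor tumours and overlapped. Ngp, a granule protein of developing neutrophils outside the list, was at 38.1, 42.1, 14.4, 45.8 and 146 CPM in rich WT 3, WT 5, IL33KO 1, IL33KO 4 and IL33KO 5. In the poor tumours it stayed between 4.58 and 14.0 CPM, so the sides were barely apart at IL33KO 1 and far apart at IL33KO 5. Of the 10 neutrophil genes, 10 were higher in sorted leukocytes than in bulk, against 37.1% of all genes tested (edgeR).

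The B cell list had the widest difference of the leukocyte lists, yet only 1 of its 12 genes respected the boundary. The median log2 difference was 2.15 (2.58 within WT and 1.43 within IL33KO), and 12 of 12 genes had the higher mean in rich tumours. Ms4a1, which encodes CD20, was at 5.75, 3.45, 0.936, 3.91 and 19.8 CPM in rich WT 3, WT 5, IL33KO 1, IL33KO 4 and IL33KO 5. Among poor tumours it was at 0.350, 0.310 and 0.247 CPM in WT 1, WT 2 and WT 4, and at 1.31 and 0.890 CPM in IL33KO 2 and IL33KO 3. IL33KO 1 was therefore below poor IL33KO 2, and IL33KO 5 stood above all others. Pax5, the B lineage transcription factor, overlapped at the same libraries, with 0.794 CPM in IL33KO 1 against 1.02 CPM in IL33KO 2. Spib, an Ets factor of B cells and plasmacytoid dendritic cells, was the member that was higher in every rich tumour, at 4.05 to 14.7 CPM against 1.18 to 2.51 CPM. Follicle genes followed the B cell genes without a separated member, for example Cr2, the complement receptor CD21, at 3.02 ± 2.72 CPM in rich and 0.309 ± 0.320 in poor tumours. Of 7 plasma cell genes, Irf4, a factor needed for plasma cell differentiation, was higher in every rich tumour, narrowly, since its lowest rich value was 3.75 CPM in WT 3 and its highest poor value 3.68 CPM in IL33KO 2. Jchain, the chain that joins IgM and IgA, overlapped widely, at 9.99 to 124 CPM against 4.92 to 35.4 CPM. Leaving out the 3 muscle-containing libraries removes IL33KO 1 and leaves only WT 3 and IL33KO 4 on the rich side. In both of these, 10 of 12 B cell genes were higher than in every poor tumour. The share of all genes was 6.73% in that reduced set and 2.68% in the full one.

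T and natural killer cell genes were higher on average in rich tumours but mostly overlapped. All 16 T cell genes had the higher mean (median log2 difference 1.06). Cd28, Cd8b1 and Bcl11b, 3 of the 16, were higher in every rich tumour, against 2.68% of all genes. Cd8b1, the β chain of the CD8 co-receptor of cytotoxic T cells, was at 15.2, 19.4, 11.8, 11.7 and 18.6 CPM in rich WT 3, WT 5, IL33KO 1, IL33KO 4 and IL33KO 5. It was at 6.90, 7.90, 6.88, 9.98 and 3.41 CPM in poor WT 1, WT 2, WT 4, IL33KO 2 and IL33KO 3. Cd8a, its partner chain, overlapped only just, with 33.3 CPM in IL33KO 1 and 33.4 CPM in IL33KO 2. Cd4, the co-receptor of helper T cells, overlapped more, at 10.7 to 18.0 CPM against 6.56 to 18.1 CPM. None of the 10 cytotoxic effector genes, 8 natural killer cell genes or 8 regulatory T cell genes was separated, although 10, 8 and 8 of them had the higher mean. Gzmb, the cell-killing protease granzyme B, was at 6.12 CPM in rich IL33KO 1 and at 24.8 and 23.9 CPM in poor IL33KO 2 and IL33KO 3, so its log2 difference was 3.04 within WT and -0.45 within IL33KO. Ctla4, an inhibitory receptor of regulatory T cells, likewise differed by 2.39 within WT and 0.12 within IL33KO. Without the 3 muscle-containing libraries, which leaves only WT 3 and IL33KO 4 on the rich side, 11 of 16 T cell genes were separated. The share of all genes was 6.73% there.

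**Figure D3:**
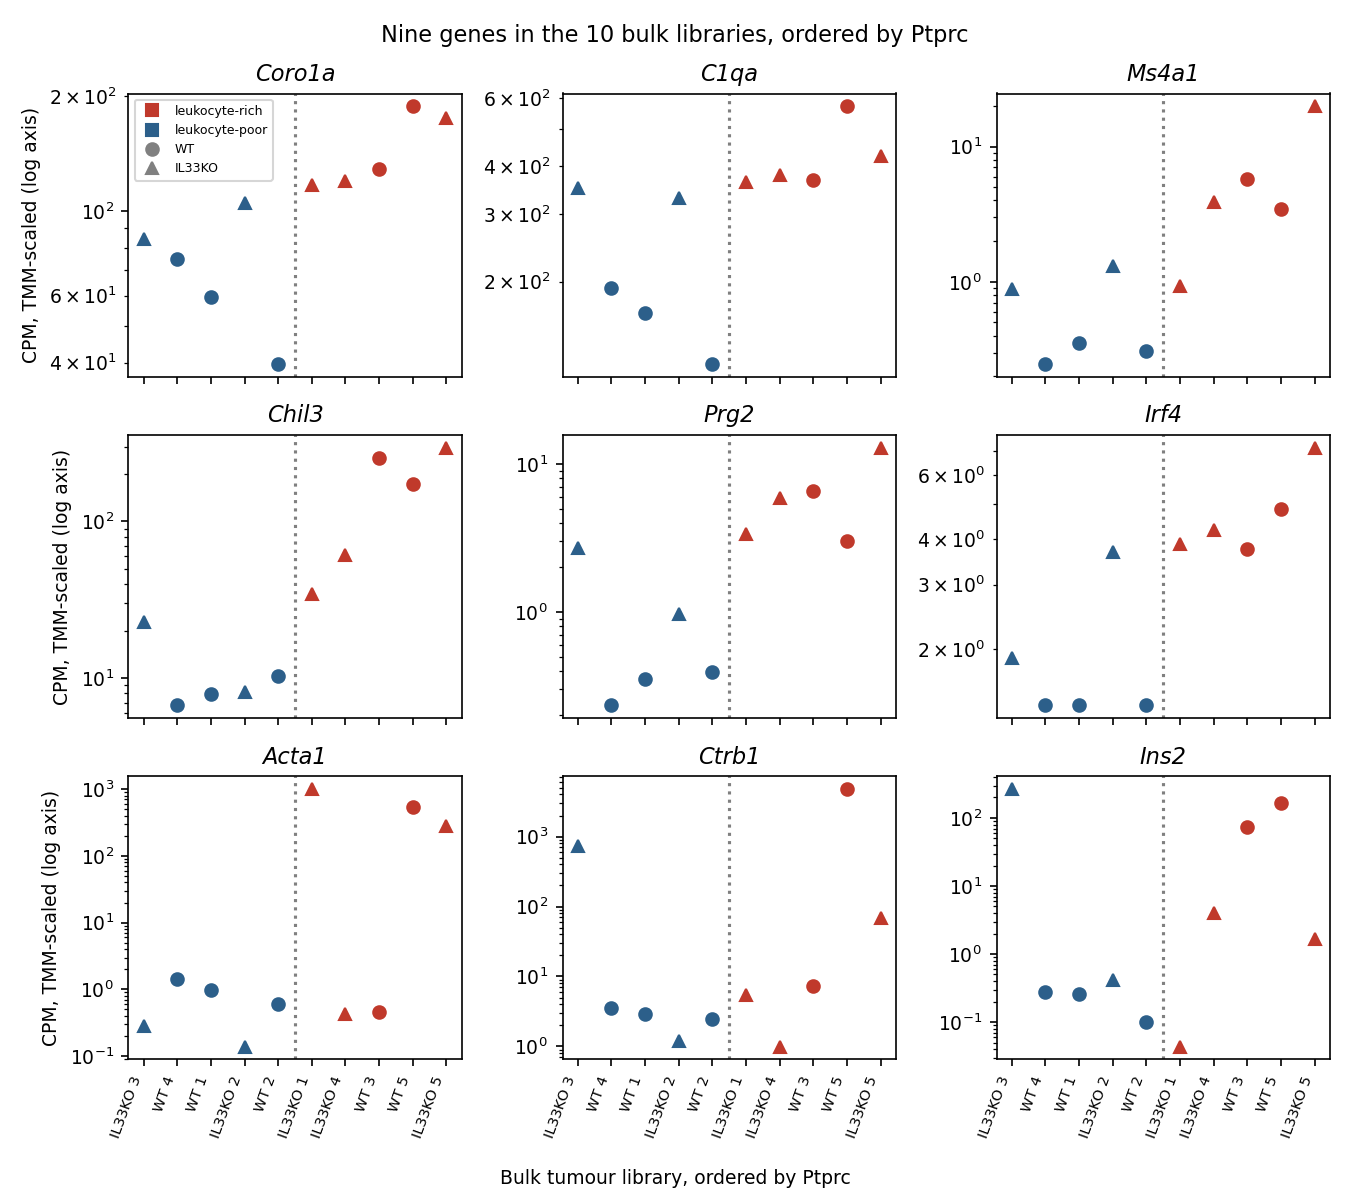
Expression of 9 genes (TMM-scaled CPM, log axis) in the 10 bulk libraries ordered by Ptprc; colour gives the side, symbols the host genotype, and the dotted line the boundary. C1qa and Coro1a separate the sides narrowly, Ms4a1 is lower in IL33KO 1 than in poor IL33KO 2, and Acta1, Ctrb1 and Ins2 are each high in a few libraries only.

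The score of the checkpoint list separated the sides, and its median difference was close in the genotypes while its members varied. The score of the 9 compared checkpoint genes was 3.29 to 3.79 in rich and 2.54 to 3.16 in poor tumours, with median log2 differences of 0.61 within WT and 0.62 within IL33KO. Pdcd1, the gene of the inhibitory T cell receptor PD-1, was at 12.8, 15.4, 14.5, 15.4 and 18.0 CPM in rich WT 3, WT 5, IL33KO 1, IL33KO 4 and IL33KO 5. It was at 10.2, 8.69, 9.58, 10.6 and 5.69 CPM in poor WT 1, WT 2, WT 4, IL33KO 2 and IL33KO 3. Every rich tumour was above every poor one, and the means differed 1.70-fold (log2 difference 0.79, SE 0.18). Cd200r1, an inhibitory receptor of myeloid cells and lymphocytes, was the other separated member, at 3.40 to 4.34 CPM against 2.23 to 2.84 CPM. Separated members were thus 2 of 9, against 2.68% of all genes. Pdcd1lg2, which encodes the PD-1 ligand PD-L2, averaged 15.3 against 6.97 CPM and overlapped, with log2 differences of 2.21 within WT and 0.11 within IL33KO. Btla, an inhibitory receptor of lymphocytes, had the wider difference within IL33KO (1.68, against 0.61 within WT).

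Antigen presentation and interferon gamma target genes had higher means in rich tumours by small amounts, and most overlapped. All 9 MHC class II, 9 MHC class I and 10 interferon gamma target genes had the higher mean, with median log2 differences of 0.64, 0.57 and 0.59. Separated were 1, 2 and 2 of them, against 2.68% of all genes. Of 10 type I interferon targets, 8 had the higher mean and 0 were separated, with a median of 0.39 (0.44 within WT and 0.09 within IL33KO). H2-Ab1, a class II β chain, was at 1450, 1530, 1390, 1400 and 1240 CPM in rich WT 3, WT 5, IL33KO 1, IL33KO 4 and IL33KO 5. In the poor tumours it was at 797, 625 and 937 CPM in WT 1, WT 2 and WT 4, at 1330 CPM in IL33KO 2 and at 618 CPM in IL33KO 3. Only IL33KO 2 among the poor tumours reached the rich range. H2-Oa, a chain of the class II-like protein H2-O, was separated at 4.29 to 10.8 CPM against 1.88 to 3.22 CPM. Psmb8 and Psmb10, subunits of the immunoproteasome, were separated too, Psmb8 at 356 to 467 CPM against 212 to 339 CPM. Irf1, a transcription factor induced by interferon gamma, was at 310 to 405 CPM in rich and 244 to 309 CPM in poor tumours. Of the 10 interferon gamma targets, 4 were higher in sorted leukocytes and 4 higher in bulk tumour, near the 37.1% and 37.7% of all genes tested; among the latter was Ido1, the tryptophan-degrading enzyme (log2 -2.46, adjusted p = 6.42e-09, edgeR).

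Type 1 dendritic cells, which carry tumour antigen to CD8 T cells, had 2 separated genes of 8, against 2.68% of all genes. Irf8, the transcription factor on which they depend, was at 51.7, 63.8, 51.0, 55.0 and 59.0 CPM in rich WT 3, WT 5, IL33KO 1, IL33KO 4 and IL33KO 5. It was at 30.7, 25.0, 34.1, 42.8 and 33.0 CPM in poor WT 1, WT 2, WT 4, IL33KO 2 and IL33KO 3. The gap lay between IL33KO 2 and IL33KO 1, and the log2 difference was 0.78 (SE 0.14). Itgae, the CD103 integrin chain of these cells and of resident T cells, ranged from 13.7 to 22.5 CPM against 3.86 to 13.3 CPM. Clec9a, a receptor for dead cells, was at 0.750 CPM in IL33KO 3 and at 2.36 CPM or more in the other 9 tumours. None of the 7 type 2 dendritic cell genes was separated. Of 8 plasmacytoid dendritic cell genes, Ccr9 and Pacsin1 were separated, while Cox6a2 was at 4.71 CPM or more only in the 3 muscle-containing libraries and Klk1 was high only in the 3 with acinar transcripts, so those members do not mark this cell type here.

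Genes of group 2 innate lymphoid cells and type 2 responses, which IL-33 acts on through the receptor ST2, were higher on average without separation. All 10 had the higher mean and 0 were separated, with medians of 1.41 within WT and 0.18 within IL33KO. Il1rl1, the ST2 gene, was at 9.60, 2.39, 1.65, 2.47 and 3.12 CPM in rich WT 3, WT 5, IL33KO 1, IL33KO 4 and IL33KO 5. It was at 0.596, 0.564, 0.687, 2.19 and 1.59 CPM in poor WT 1, WT 2, WT 4, IL33KO 2 and IL33KO 3. The 3 poor WT tumours were the lowest, WT 3 the highest, and IL33KO 1 lay below IL33KO 2. Arg1, an arginine-degrading enzyme of myeloid cells, was at 131 to 461 CPM in rich and 63.9 to 216 CPM in poor tumours. The median of the mast cell list was 1.19 within WT and -0.76 within IL33KO, and its members differed. Tpsb2, a mast cell tryptase, had log2 differences of 2.29 and -1.33. Mcpt4, a mast cell chymase, had lower means in rich tumours of both genotypes (-0.91 and -0.42), and Kit, the stem cell factor receptor, had differences of 0.61 and 0.08. Mcpt4 did not follow Tpsb2: in poor WT 1, WT 2 and WT 4 it was at 80.8 to 97.2 CPM, with Tpsb2 at 1.64 to 2.51 CPM. Sorted against bulk, Tpsb2 was higher (log2 3.55, adjusted p = 2.69e-05, edgeR) and Mcpt4 did not pass the test (log2 -0.09, adjusted p = 0.827, edgeR).

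The largest median difference of any list was in transcripts of skeletal muscle, but it depended on which libraries were called rich. When sides were set by the pan-leukocyte score it was 1.47, below the islet (2.62), B cell (2.15) and follicle (1.84) lists. Skeletal muscle genes were high in 3 libraries, all on the rich side. Acta1, the actin of skeletal muscle, was at 536 CPM in WT 5, 1000 CPM in IL33KO 1 and 277 CPM in IL33KO 5. It was at 0.464 and 0.431 CPM in the other rich tumours, WT 3 and IL33KO 4, and at 0.139 to 1.44 CPM in the poor ones. The muscle list has 6 compared members with a median log2 difference of 5.40, but 0 were separated, because WT 3 and IL33KO 4 were at the level of poor tumours. Ryr1, the calcium release channel of muscle, Des, the intermediate filament desmin, Hspb7, a small heat shock protein of muscle, and Cacna1s, the muscle calcium channel, were among the 10 largest separated differences. Ryr1 and Cacna1s were also counted in every sorted leukocyte library, at 5.47 to 7.10 CPM and 3.18 to 13.4 CPM. Acta1 was at 0.101 to 2.46 CPM there. Ryr1 was at 46.6, 68.2 and 22.9 CPM in WT 5, IL33KO 1 and IL33KO 5, at 0.658 and 1.03 CPM in WT 3 and IL33KO 4, and at 0.310 to 0.655 CPM in poor tumours. Its high mean thus came from the 3 libraries with Acta1, while the sides were kept apart only by 0.658 CPM in WT 3 against 0.655 CPM in IL33KO 2. Without these 3 libraries the median of the muscle list was 0.27, and 134 of the 184 genes (72.8%) were still counted among 421.

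Acinar and islet genes of the normal pancreas were high in libraries of both sides. Ctrb1, a chymotrypsinogen of acinar cells, was at 4780 CPM in rich WT 5, 741 CPM in poor IL33KO 3 and 68.1 CPM in rich IL33KO 5, against 0.994 to 7.38 CPM in the other 7. Every sorted leukocyte library also held Ctrb1, at 181 to 11200 CPM, so acinar RNA is present in that reference too. Ctrb1 did not pass the test of sorted against bulk (log2 2.02, adjusted p = 0.315, edgeR). Ins2, an insulin gene of islet beta cells, was at 266 CPM in poor IL33KO 3, 165 CPM in rich WT 5 and 72.8 CPM in rich WT 3, and at most 4.00 CPM elsewhere. The medians of the acinar list were 5.11 within WT and -2.11 within IL33KO, and those of the islet list 7.21 and -2.93. Beside the leukocyte results, the 5 rich tumours thus include 3 with muscle and 2 with acinar transcripts, and the 5 poor ones 0 and 1, and the part of this admixture in the leukocyte differences was not tested.

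Stromal genes were higher on average in rich tumours with overlap. All 12 fibroblast genes had the higher mean (median log2 difference 0.95) and 0 were separated, while 11 of 12 were higher in bulk than in sorted libraries, against 37.7% of all genes tested (edgeR). Col1a1, the main chain of fibrillar collagen, was at 443, 741, 1800, 1090 and 671 CPM in rich WT 3, WT 5, IL33KO 1, IL33KO 4 and IL33KO 5. It was at 353, 228, 461, 312 and 817 CPM in poor WT 1, WT 2, WT 4, IL33KO 2 and IL33KO 3, so IL33KO 3 stood above 3 of the rich tumours. Pdpn, the podoplanin gene of lymphatic endothelium, fibroblasts and some macrophages, was separated, at 13.9 to 20.6 CPM against 2.88 to 12.2 CPM. Mesothelial genes were highest in IL33KO 4 of the rich and IL33KO 2 of the poor tumours, where Upk3b, a uroplakin of mesothelium, was at 47.5 and 31.5 CPM against 3.06 to 15.6 CPM elsewhere. Endothelial genes differed little (median 0.19).

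Genes of the cancer epithelium did not lean to the rich side. The tumour epithelium list was the only list with a median below 0 (-0.07), and 4 of 12 genes had the higher mean in rich tumours. Krt18, a keratin of simple epithelium, was at 1540, 1670, 1940, 1560 and 1390 CPM in rich and at 1690, 1540, 1760, 1530 and 1850 CPM in poor tumours. The values of the sides interleave. Epcam, an adhesion molecule of epithelium, ran from 300 to 451 CPM in rich and from 186 to 482 CPM in poor tumours. Cldn4, a tight junction claudin, was high in the 3 libraries with acinar transcripts (140 CPM in WT 5, 109 CPM in IL33KO 3 and 101 CPM in IL33KO 5) and at 6.12 to 23.2 CPM elsewhere. Gabrp, a GABA receptor subunit chosen for mention after its values were seen, was lower in every rich tumour, at 303 to 361 CPM against 407 to 500 CPM, and was lower in sorted leukocytes than in bulk (log2 -2.39, adjusted p = 3.98e-10, edgeR). Proliferation, hypoxia and oxidative phosphorylation lists had medians of 0.25, 0.04 and 0.17, with no separated member in any of them.

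Among the 54 separated genes with a 2-fold difference and at least 5 CPM in rich tumours, 14 had a lower mean in sorted leukocytes than in rich bulk tumour, a comparison of means without a test. Apart from the muscle genes, these included Serpina3n, Cxcl12 and Sptb. Of the muscle genes, Cacna1s was nearly equal, with means of 8.47 CPM in sorted leukocytes and 8.55 CPM in rich tumours. Serpina3n, a secreted protease inhibitor, was at 12.4 to 24.9 CPM in rich tumours, lowest in WT 5 and highest in IL33KO 1. It was at 3.64, 3.53, 3.23, 5.64 and 6.30 CPM in poor WT 1, WT 2, WT 4, IL33KO 2 and IL33KO 3, and averaged 5.53 CPM in sorted leukocytes (sorted minus all bulk, log2 -0.92, adjusted p = 0.0366, edgeR). The gap was wide in both genotypes (log2 2.14 within WT and 1.53 within IL33KO). Cxcl12, the stromal chemokine that binds CXCR4, was at 11.9 to 22.8 CPM in rich and 3.26 to 9.71 CPM in poor tumours, a 3.40-fold difference in means. In sorted leukocytes Cxcl12 ranged from 2.94 to 34.8 CPM and did not pass the test against bulk (log2 0.06, adjusted p = 0.897, edgeR). Sptb, the β chain of erythrocyte spectrin that is also made in muscle, was at 4.99 to 11.7 CPM against 0.550 to 1.80 CPM, and did not pass the test of sorted against bulk either (mean of 2.76 CPM in sorted libraries, log2 -0.65, adjusted p = 0.287, edgeR). Sptb was as high in WT 3 (7.76 CPM), where Acta1 was at 0.464 CPM, as in the muscle-containing WT 5 (5.46 CPM). Flnc, Cryab and Atp1b2 were the remaining ones named by rule, and all 3 were highest in the 3 muscle-containing libraries.

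Few genes were lower in rich tumours by 2-fold. The 5 that were are Ryr2, D7Ertd443e, Gm13991, Gm6568 and Gm18180, named here after their values were seen. All stayed under 5 CPM, the highest mean being 1.45 CPM for Gm18180 in poor tumours. Ryr2, the calcium release channel of heart and neurons, was at 0.542, 0.220, 0.337, 0.685 and 0.275 CPM in rich WT 3, WT 5, IL33KO 1, IL33KO 4 and IL33KO 5, and at 0.687 to 1.03 CPM in the poor tumours. The closest values, in IL33KO 4 and IL33KO 3, were almost equal.

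Host genotype did not line up with the sides. Ptprc did not differ detectably between genotypes, with a log2 difference of IL33KO minus WT of 0.06 (two-sided exact permutation test over 252 assignments, p = 0.857; the smallest possible p is 0.00794; n = 5 each). The Fisher exact test of side by genotype gave p = 1. With the side in the model, edgeR called 0 of 17258 genes by genotype at an adjusted p of 0.05, where 868 genes had an unadjusted p below 0.05, and DESeq2 called 31 higher and 23 lower in IL33KO. The smallest adjusted p in edgeR was 0.554 for Cxcr2, at 18.8, 20.9, 14.6, 17.5 and 16.5 CPM in WT 1 to 5 and at 8.67, 10.7, 9.40, 7.23 and 10.4 CPM in IL33KO 1 to 5. These ranges do not overlap, and the model estimate was -0.88 on the log2 scale. Cxcl5, a ligand of CXCR2, was at 139 to 172 CPM in WT and 91.6 to 115 CPM in IL33KO (log2 -0.57, adjusted p = 0.895, edgeR). In the other direction, Cxcl12 averaged 7.51 CPM in WT and 15.3 CPM in IL33KO (log2 0.85, adjusted p = 0.895, edgeR). Upk3b averaged 5.28 CPM in WT and 22.1 CPM in IL33KO (log2 2.01, adjusted p = 0.895, edgeR). Cxcl12 and Upk3b both overlapped between genotypes.

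The distance between the sides looked different within each genotype. WT 1, WT 2 and WT 4 were close to one another and low in nearly all leukocyte lists, while the poor IL33KO tumours were not. For the pan-leukocyte list the median difference was 1.09 within WT and 0.46 within IL33KO, for macrophage genes 0.92 and 0.26, and for regulatory T cell genes 1.85 and 0.13. The medians of the checkpoint, MHC class II and fibroblast lists were close in both, at 0.61 and 0.62, 0.70 and 0.61, and 0.77 and 0.74, although single members were not, such as Dcn, a matrix proteoglycan of fibroblasts, at 2.00 and 0.69. Within WT the comparison is of 2 against 3 tumours and within IL33KO of 3 against 2, and the difference between genotypes in these distances was not tested.

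**Figure D4:**
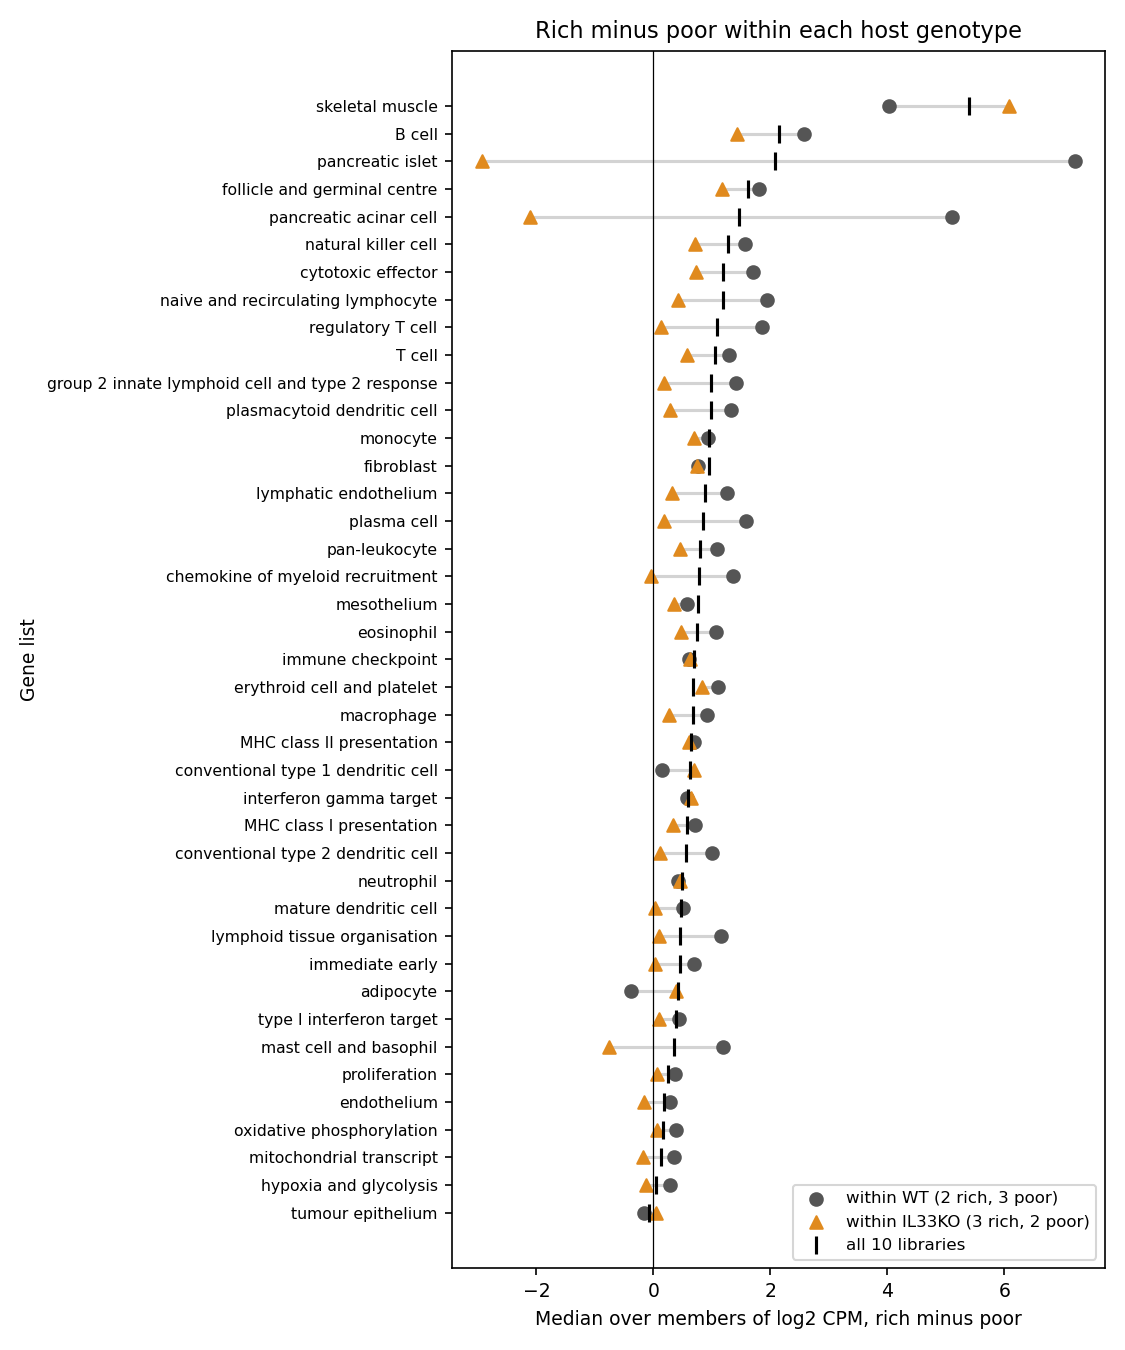
Median over the members of each list of the rich minus poor difference in mean log2 CPM (x axis), within WT (circles, 2 rich and 3 poor), within IL33KO (triangles, 3 rich and 2 poor) and over all 10 libraries (bars). Most leukocyte lists lie further to the right within WT, and the acinar and islet lists point in opposite directions in the genotypes.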

How the data were processed

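RNA-seq of 10 bulk tumour libraries (5 per host genotype), with 10 sorted leukocyte libraries for reference, was read from the raw HTSeq counts per gene that the authors deposited, without normalization. Libraries were stranded poly(A) (TruSeq), per the labels' protocols. Picard, HTSeq, DESeq and mm10 are named in the submitters' processing notes; the aligner, and whether counting used strand, are not given in those sources, so overlapping genes and near-identical copies are uncertain. The authors also deposited a table of scaled signal (counts divided by size factors, per the file headers), used only as an alternative. The 5 summary lines (26.1 to 35.8% of reads in bulk libraries) were left out.

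Groups came from the sample titles. Sides were set by Ptprc counts over the sum of gene counts; all other values are TMM-scaled CPM. Differences are of mean log2 CPM (prior count 2) among the 17258 bulk genes kept by filterByExpr, with R 4.3.3, edgeR 4.0.16 and DESeq2 1.42.0. Tests across genes used edgeR's quasi-likelihood test with Benjamini-Hochberg adjustment, two-sided, and were tried on simulated data. Ptprc by genotype used an exact permutation test. The labels do not tie libraries to animals, so p-values measure the spread between libraries, which may be partly technical; no 2 libraries agreed within sampling noise. Depth was 51.3 to 81.0 M counts (M for mega), and 3 counts correspond to 0.0326 to 0.0469 CPM; this floor covers counting error only.

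The sides, the 41 lists (395 symbols, 2 not matched uniquely, 373 genes compared) and the rules were chosen with earlier results of these data known. Named genes were Ptprc, Il33 and Il1rl1, the 10 largest differences per direction among separated genes with 2-fold and at least 5 CPM, the 10 largest of these below rich tumours in sorted libraries, up to 4 members per list with the largest difference and at least 1 CPM, and the 5 smallest p per direction for genotype; separated list members and cell type markers were added after their values were seen. The values of 1 list member are not reported here. Coordinates are GENCODE M21 (GRCm38). Alternatives were other splits, scalings, filters and fold minimums, each genotype alone, a replicate block and leaving out libraries.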

Additional observations from a re-analysis of the deposited data

Results flagged for a closer look

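In 84 groups of 5 libraries (41 list scores and Ptprc in each genotype), 11 had 1 library far from its own genotype's other 4, by a gap that chance gives in about 1 in 20 groups. Scores are mean log2 CPM of the list.

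In WT 5 the acinar score was 9.75 (0.28 to 0.75 in the other WT tumours), the skeletal muscle score 7.08 (-1.13 to -0.84), the endothelial score 3.90 (3.01 to 3.16) and the proliferation score 6.66 (5.96 to 6.13). WT 3 had a mesothelial score of 4.00 (2.75 to 2.94) and an adipocyte score of 1.74 (2.80 to 3.12). Both are the rich WT tumours, so the rich side within WT rests on libraries that stand apart in other tissues too.

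IL33KO 5 had a naive lymphocyte score of 3.44 (2.19 to 2.53 in the other IL33KO tumours) and a neutrophil score of 4.64 (3.44 to 3.68). IL33KO 3, the tumour with the least Ptprc, was low in MHC class II presentation (6.48 against 7.55 to 7.92), MHC class I presentation (7.60 against 8.03 to 8.17) and interferon gamma targets (6.50 against 7.52 to 7.66). Its macrophage score of 5.77 was the highest of the poor side.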

How the results depend on the processing

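The counts of separated genes with at least a 2-fold difference were 184 higher and 5 lower, and they moved with the boundary. The pan-leukocyte score exchanges IL33KO 1 and IL33KO 2; it gave 227 higher genes, and by construction none can be counted under both splits. The list medians were above 0 for 38 of 41 lists under that split, and that of skeletal muscle fell from 5.40 to 1.47. Without the libraries next to the boundary (WT 2 and IL33KO 1) 332 genes were higher and 12 lower, and 168 of the 184 were among them. Fewer libraries make separation easier: the counts were 421 and 27 without the 3 muscle-containing libraries, 442 and 35 without the 3 with acinar transcripts, 1634 and 483 in WT alone, and 318 and 132 in IL33KO alone. The muscle, acinar and boundary exclusions were added after the data were seen. Leaving out 1 bulk library gave 170 to 524 higher and 5 to 36 lower; the higher count moved by over 1.5 times without WT 3 (280), IL33KO 1 (345), IL33KO 2 (524) or IL33KO 3 (491), and the lower count by more than that also without WT 2 (8), WT 5 (9), IL33KO 4 (21) or IL33KO 5 (12), and without WT 3 (18), IL33KO 1 (13), IL33KO 2 (22) or IL33KO 3 (36).

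Fold minimums of 1.5 and 4 gave 351 and 62 higher and 27 and 1 lower genes. The lower count was 9 without TMM factors and 45 with no filter. Split by TMM-scaled Ptprc, the libraries fell on the same sides.

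For genotype given the side, edgeR called 0 and 0, and leaving out 1 library gave 0 to 7 higher and 0 to 0 lower; DESeq2 called 31 and 23, and the cause was not tested. Ptprc by genotype ranged from -0.11 to 0.25 with 1 library left out (exact p = 0.286 to 1). Sorted against bulk gave 6644 to 6906 higher and 6791 to 6896 lower genes with 1 bulk library left out.

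Replicate numbers did not pair the samples (correlations of deviations -0.261 to 0.3 between sorted and bulk, own number best for 2 of 10; -0.123 to 0.59 between WT and IL33KO bulk, where 4 of 5 pairs exceeded 0.1 and the own number was best for 2 of 5). With the replicate block, sorted against bulk gave 6564 higher and 6584 lower genes and genotype 0 and 0. Ckm, lower in sorted libraries in the fit without it, was 0.48 higher (log2, adjusted p = 0.806), the cause was not tested. Depth limits genes near the floor of 3 counts (Epx and Ckm in poor tumours among them), for which only levels are given.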

Other observations

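Several separated genes outside the lists are given here; they were chosen for mention after their values were seen. Prtn3, a granule protease of immature neutrophils, was at 2.95 to 7.81 CPM in rich and 0.725 to 1.86 CPM in poor tumours. Elane, neutrophil elastase, was at 0.195 to 0.605 CPM in poor tumours and exceeded that in every rich one, reaching 5.20 CPM in IL33KO 5. Ms4a3, a marker of granulocyte and monocyte precursors, was at 0.196 to 2.31 against 0.0557 to 0.169 CPM. All 3 were higher in sorted leukocytes than in bulk (adjusted p = 8.19e-07, 1.58e-05 and 1.58e-05, edgeR).

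Klf1 and Hemgn, genes of developing red cells, were separated as well. Klf1, the erythroid transcription factor, was at 0.607 to 2.33 CPM in rich and 0.113 to 0.375 CPM in poor tumours. Hemgn, an erythroid nuclear protein, was at 6.01, 1.01, 2.42, 2.03 and 7.99 CPM in rich WT 3, WT 5, IL33KO 1, IL33KO 4 and IL33KO 5, and at 0.167 to 0.828 CPM in poor tumours. Slc4a1, the anion exchanger of red cells, reached 40.7 CPM in WT 3 and 47.2 CPM in IL33KO 5. Its sides overlapped because WT 5 had 6.31 CPM and IL33KO 3 had 7.61 CPM. Sorted against bulk, neither Klf1 (log2 0.02, adjusted p = 0.972) nor Hemgn (log2 -0.46, adjusted p = 0.53) passed the edgeR test.

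Lyz2, the lysozyme of myeloid cells, was at 926 to 1220 CPM in rich and 410 to 772 CPM in poor tumours, a separated gene of high level.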
